A study of Homo sapiens with 21 samples.

Results

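The genes described here are 30 known transcriptional targets of the tumour suppressor p53, chosen as a named list with earlier results of these data known. They are divided by role into feedback, cell cycle arrest, cell death, DNA repair and metabolism. They are 30 of the 26809 genes in the RNA files, and all 30 were among the 13530 genes with enough reads to be tested. Expression was measured by RNA-seq in 786-O, a human cell line established from a clear cell carcinoma of the kidney, in 3 libraries with a control guide RNA, 3 with guide sg2 against JMJD6 and 3 with guide sg4 against JMJD6. The titles and the genotype label name the sg2 and sg4 cells JMJD6 knockouts, while a treatment protocol shared by the samples speaks of siRNA, and whether the infected cells were a pool or a clone is not given in the sources used here. The labels speak of triplicates and do not mention separate cultures, so a p-value here reflects how these libraries varied, which may be technical variation only. JMJD6 is an oxygenase that has been reported to hydroxylate a lysine of p53, and the comparison asks how the mRNA of p53 targets stood with and without the JMJD6 guides.

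In cells with functional p53, DNA damage and other stresses stabilise the protein, which binds paired decamer repeats in DNA and activates genes that stop the cell cycle, repair DNA or kill the cell. Its target MDM2 encodes the ubiquitin ligase that degrades p53, which closes a feedback loop, and its target CDKN1A encodes p21, the inhibitor of cyclin-dependent kinases. Many of the target genes are also transcribed without p53, and neither the p53 protein nor its binding was measured here.

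The libraries held between 14224263 and 16300347 estimated counts. JMJD6 itself was at 41.5, 40.9 and 44.4 counts scaled to library size (CPM) in control libraries 1, 2 and 3, at 17.1, 16.1 and 17.3 CPM with sg2 and at 11.7, 14.4 and 10.7 CPM with sg4, below every control in all 6 knockout libraries. Of 8 markers of renal carcinoma and epithelium all were tested, with PAX8 at a mean of 322 CPM in the controls. The endothelial gene CDH5 and the T cell gene CD3E were at 0 in every library. The 7 fibroblast and pericyte markers summed to between 26.7 and 81.0 CPM in the controls, between 17.1 and 21.9 CPM with sg2 and between 17.7 and 29.5 CPM with sg4. COL1A2 had 298 counts in control 1 and at most 45 in any other library. The 4 airway epithelium markers, a cell type foreign to this line, summed to between 0.404 and 3.13 CPM in the controls, between 4.23 and 7.69 CPM with sg2 and between 4.34 and 11 CPM with sg4. The 5 leukocyte markers summed to between 54.2 and 68.4 CPM in the controls, between 46.3 and 52.0 CPM with sg2 and between 48.0 and 56.2 CPM with sg4. Nearly all of that sum was CD68, which fell in the mean of both guides, while CSF1R, at between 2.13 and 2.41 CPM in the controls, rose. Neither passed the test given below with sg4 alone, or in the mean of both guides without control 3. The libraries control 3, sg4 2 and sg4 3 stood apart in how CPM depended on transcript length. The fitted difference between the 1353 shortest and the 1353 longest genes was −0.19 on the log2 scale in control 3, 0.12 in sg4 2 and 0.21 in sg4 3, against values between −0.03 and −0.0006 in the other 6. The part of these markers in the results below was not tested. For length, the calls of members in the mean of both guides that change with a length correction or without those 3 libraries are named with the genes.

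Of the 30 target genes, 9 fell and 2 rose when the 2 guides together were compared with the controls, and 19 did not pass the test (edgeR quasi-likelihood, p adjusted by Benjamini-Hochberg over all genes and under 0.05). The 9 were MDM2, CDKN1A, BTG2, EDA2R, TP53INP1, XPC, RRM2B, FDXR and ZMAT3, and the 2 were PLK2 and PMAIP1. Over all genes tested, 6.95% fell and 6.92% rose, beside 30% of the members that fell and 6.67% that rose. The members were chosen with earlier results of these data known, so this gap in shares is a description and not a test. The median log2 fold change was −0.12 over the members and −0.0059 over all genes, and 22 members had a negative value. The changes were small, from 1.16-fold lower for MDM2 to 1.43-fold lower for BTG2, and the 2 genes that rose were 1.13-fold and 1.20-fold higher. All 6 knockout libraries lay below every control for 7 members and above every control for 2, against 7.18% and 7.76% of all genes. With the length correction 9 were lower and 2 higher, with BAX called in place of TP53INP1, beside 6.81% and 7.44% of all genes. Without control 1 the counts were 5 lower and 2 higher, beside 3.18% and 3.68% of all genes. Without control 3, or without sg4 2, 1 member was called higher. Without control 3, sg4 2 and sg4 3 they were 9 lower and 0 higher, beside 4.26% and 3.73%. A bulk level does not separate fewer cells expressing a gene from less RNA per cell.

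**Figure D1:**
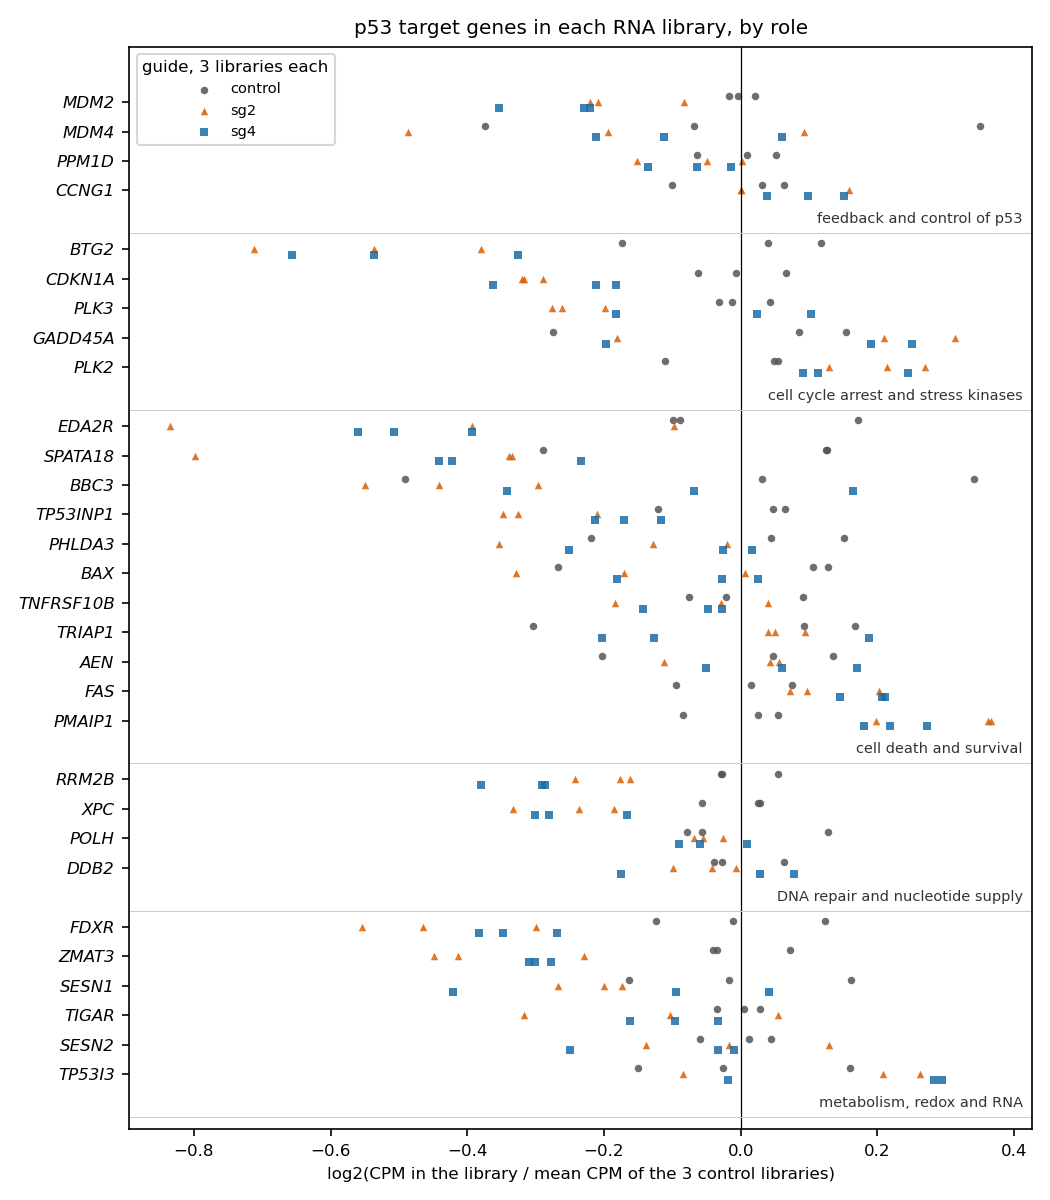
Each point is 1 library; the horizontal axis gives log2 of its CPM over the mean CPM of the 3 control libraries, and the genes are grouped by role. Members of every role lie on the left, such as BTG2, EDA2R, RRM2B and FDXR, while PLK2 and PMAIP1 have all 6 knockout libraries to the right of the controls.

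To show the DNA beside these changes, the 250 bases before every listed RefSeq start of each gene (GRCh38.p14) were searched. Some genes had more than 1 start. The search was for the p53 consensus decamer, whose letters are the same on both strands. An entry was found for 25 of the 30 members and not for GADD45A, TNFRSF10B, PHLDA3, TP53INP1 and RRM2B. Of these 25 genes, 5 had a window with a decamer (20%), PLK2, FAS, AEN, SESN1 and FDXR, against 6.8% of 27305 genes with such windows. A gene with several starts counted if any of its windows held a decamer. Per window the share was 13.5% of 37 member windows, against 5.57% of 35116. FAS, SESN1 and FDXR also had a window without a decamer. The members with a decamer included a gene that fell (FDXR), a gene that rose (PLK2) and 3 that did not pass the test. FDXR, PLK2 and AEN are shown because FDXR and AEN carry the same decamer, GGGCTTGCCC, and only FDXR passed the test, while PLK2 moved the other way. Capitals mark the decamer, which starts 11 bases before the transcription start in FDXR, 34 bases before it in AEN and 132 bases before it in PLK2. The windows lie at chr17:74872995-74873244 on the minus strand for FDXR, chr15:88621090-88621339 on the plus strand for AEN and chr5:58460087-58460336 on the minus strand for PLK2.
FDXR: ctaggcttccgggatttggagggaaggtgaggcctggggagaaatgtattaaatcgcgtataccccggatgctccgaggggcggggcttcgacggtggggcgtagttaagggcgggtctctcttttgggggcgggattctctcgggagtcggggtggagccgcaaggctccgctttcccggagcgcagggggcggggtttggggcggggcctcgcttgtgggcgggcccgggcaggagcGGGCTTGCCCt
AEN: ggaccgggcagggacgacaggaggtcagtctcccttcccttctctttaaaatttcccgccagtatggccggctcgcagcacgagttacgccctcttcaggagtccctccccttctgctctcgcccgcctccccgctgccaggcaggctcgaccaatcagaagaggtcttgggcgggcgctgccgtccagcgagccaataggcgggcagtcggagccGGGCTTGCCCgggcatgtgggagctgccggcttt
PLK2: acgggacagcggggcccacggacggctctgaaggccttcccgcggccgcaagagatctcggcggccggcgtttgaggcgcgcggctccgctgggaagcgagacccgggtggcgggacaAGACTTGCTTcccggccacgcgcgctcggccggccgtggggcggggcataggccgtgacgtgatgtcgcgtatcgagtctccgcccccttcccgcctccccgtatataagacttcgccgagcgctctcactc
A match of letters is a description and not a measured binding site, and a window without one says only that these letters are not in it.

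Among the 4 genes of feedback and control, MDM2 fell and MDM4, PPM1D and CCNG1 did not pass the test. MDM2 was at 102, 103 and 105 CPM in the controls, at 88.9, 89.7 and 97.8 CPM with sg2 and at 89.0, 81.1 and 88.4 CPM with sg4. The controls were close together and every knockout library lay below them. The log2 fold change of the mean of both guides was −0.22 ± 0.054 (SE, edgeR adjusted p = 0.00746). By guide it was −0.27 with sg4 (edgeR adjusted p = 0.00859) and −0.17 with sg2, which missed the threshold (edgeR adjusted p = 0.0827). The sg4 call was lost without sg4 2 (edgeR adjusted p = 0.0518). The call of MDM2 in the mean was lost without control 3, sg4 2 and sg4 3, at −0.18 (edgeR adjusted p = 0.0857), and so was the sg4 call (edgeR adjusted p = 0.233). MDM4, the relative of MDM2 that masks the activation domain of p53, had a log2 fold change of −0.13 ± 0.12 and ranged from 22.3 to 36.8 CPM among the controls alone. PPM1D, the phosphatase WIP1 that reverses the phosphorylation of p53 and its kinases, was at −0.07 ± 0.090. CCNG1, the cyclin G1 that recruits a phosphatase to MDM2, was at 0.08 ± 0.054.

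Among the 5 arrest genes and stress kinases, CDKN1A and BTG2 fell, PLK2 rose, and GADD45A and PLK3 did not pass the test. CDKN1A was at 673.5, 640.0 and 616.1 CPM in the controls, at 516, 515 and 526 CPM with sg2 and at 500.1, 567 and 556 CPM with sg4. No knockout library reached the lowest control. Its log2 fold change was −0.28 ± 0.046 (edgeR adjusted p = 2.06e-04), which is 1.21-fold lower, and it was called with sg2 at −0.31 (edgeR adjusted p = 5.23e-04) and with sg4 at −0.25 (edgeR adjusted p = 0.00452). BTG2, an antiproliferative protein that recruits the deadenylase complex to mRNA, was at 12.8, 12.1 and 10.5 CPM in the controls, at 7.19, 9.06 and 8.12 CPM with sg2 and at 7.48, 8.13 and 9.41 CPM with sg4. The groups did not overlap, and its log2 fold change of −0.52 ± 0.13 had the largest size among the members (edgeR adjusted p = 0.00699). It is also among the members with few reads, between 116 and 190 counts a library, and its call was lost without control 1, at −0.46 (edgeR adjusted p = 0.0636).

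PLK2, a polo-like kinase induced by stress, was at 245, 244 and 218 CPM in the controls, at 273, 284.0 and 258 CPM with sg2 and at 251, 279 and 255 CPM with sg4. All 6 knockout libraries were above the controls, by little in sg4 1 and sg4 3. The log2 fold change was 0.18 ± 0.052 (edgeR adjusted p = 0.0232), with 0.21 for sg2 (edgeR adjusted p = 0.0276) and 0.15 for sg4, which was not called (edgeR adjusted p = 0.121). The sg2 call was lost without control 3, sg2 1 or sg2 2 (edgeR adjusted p = 0.153, 0.0921 and 0.116) and without control 3, sg4 2 and sg4 3 together (edgeR adjusted p = 0.112). The rise of PLK2 lost its call without control 3, at 0.13 (edgeR adjusted p = 0.191), and without sg4 2, at 0.15 (edgeR adjusted p = 0.0562). Without control 3, sg4 2 and sg4 3 together it was 0.10 (edgeR adjusted p = 0.337), and on log2 TPM values with limma 0.12 (adjusted p = 0.138). GADD45A, a stress sensor that binds PCNA and p21, was at 0.11 ± 0.094, with libraries of every group on both sides of the control mean. PLK3 was at −0.25 with sg2 and −0.01 with sg4, and its mean of both guides was −0.13 ± 0.096.

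**Figure D2:**
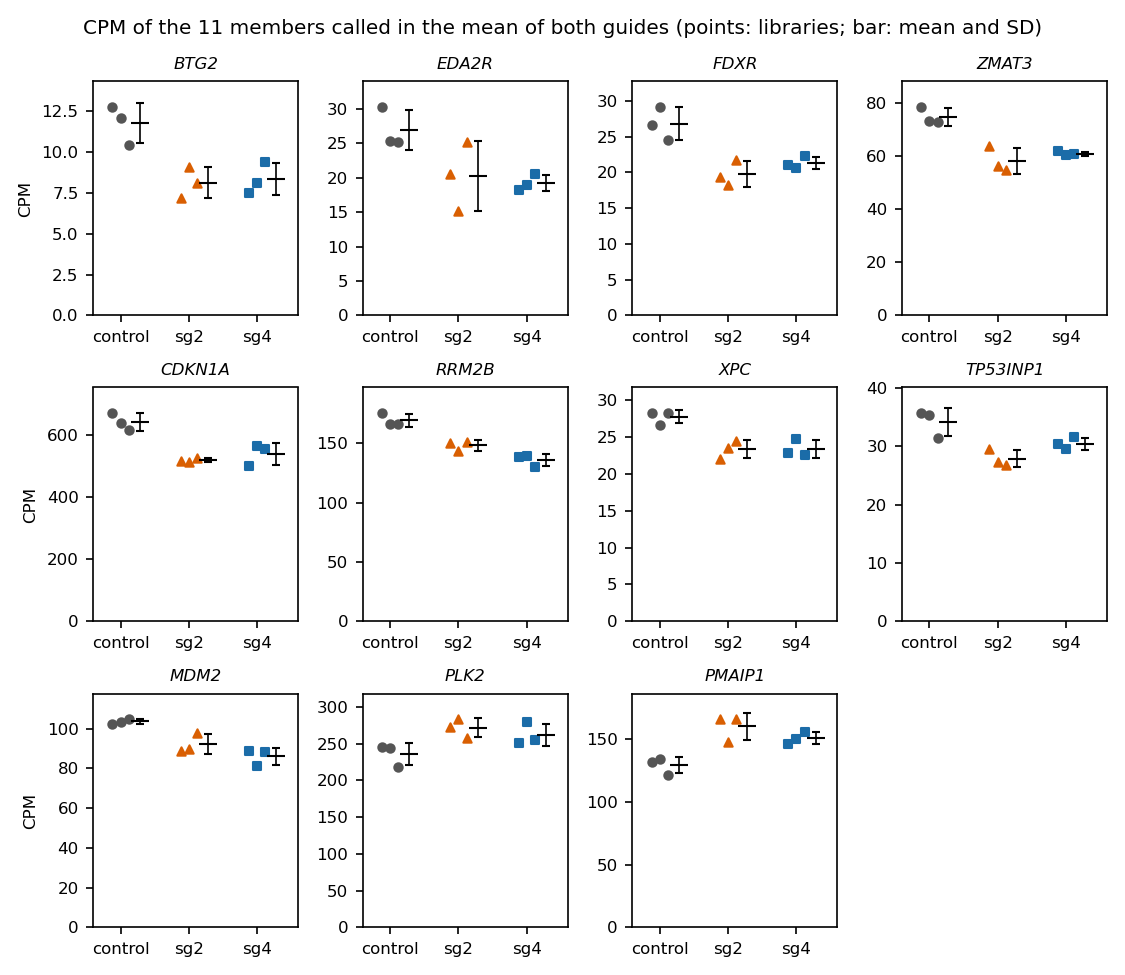
CPM of the 11 called members, 1 panel a gene, on axes that start at 0; points are libraries, the bar is the mean and the whisker the SD of 3 libraries. The 6 knockout libraries lie below all controls for BTG2, FDXR, ZMAT3, CDKN1A, RRM2B, XPC and MDM2 and above them for PLK2 and PMAIP1, whereas 1 sg2 library of EDA2R and 1 sg4 library of TP53INP1 reach the lowest control.

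Of the 11 genes of cell death and survival, EDA2R and TP53INP1 fell, PMAIP1 rose and 8 did not pass the test. EDA2R, a death-domain receptor of the tumour necrosis factor receptor family, was at 30.4, 25.4 and 25.2 CPM in the controls, at 20.5, 15.1 and 25.2 CPM with sg2 and at 18.3, 19.0 and 20.5 CPM with sg4. Library sg2 3 lay at the level of control 3 and the other 5 knockout libraries below all controls. The log2 fold change was −0.45 ± 0.11 (edgeR adjusted p = 0.00775), and it was not called without control 1, at −0.35 (edgeR adjusted p = 0.0951). TP53INP1, which takes part in autophagy and in the phosphorylation of p53, was at 35.8, 35.4 and 31.5 CPM in the controls, at 29.6, 27.3 and 26.9 CPM with sg2 and at 30.4, 29.5 and 31.6 CPM with sg4. The sg2 libraries were all below the controls, and sg4 3 was level with control 3. Its log2 fold change was −0.23 ± 0.075 (edgeR adjusted p = 0.0408), near the threshold. The call of TP53INP1 was lost with the length correction, at −0.20 (edgeR adjusted p = 0.0718), and on leaving out any one of controls 1 and 2, sg2 2 and 3, and sg4 1 and 2 (edgeR adjusted p from 0.0583 to 0.206). It was also lost without control 3, sg4 2 and sg4 3, at −0.29 (edgeR adjusted p = 0.0586).

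PMAIP1, which encodes the BH3-only death protein NOXA, went the other way. It was at 131, 134 and 122 CPM in the controls, at 166, 148 and 166 CPM with sg2 and at 146, 150.2 and 156 CPM with sg4. Every knockout library lay above every control, and the log2 fold change was 0.27 ± 0.053 (edgeR adjusted p = 0.00135), with calls for sg2 at 0.31 (edgeR adjusted p = 0.00146) and for sg4 at 0.22 (edgeR adjusted p = 0.0217). The sg4 call was lost without control 1, control 3, sg4 2 or sg4 3 (edgeR adjusted p from 0.0507 to 0.124). The difference of both guides was 0.21 and not called without control 3, sg4 2 and sg4 3 (edgeR adjusted p = 0.0522), nor was that of sg4, at 0.14 (edgeR adjusted p = 0.421). BBC3, which encodes the other BH3-only protein of the list, PUMA, was at 24.3, 19.6 and 13.7 CPM in the controls, at 14.1, 15.6 and 13.1 CPM with sg2 and at 15.2, 18.3 and 21.5 CPM with sg4. Control 3 lay among the knockout libraries, only sg2 3 was below every control and none was above, and BBC3 was not called, at −0.25 ± 0.13 (edgeR adjusted p = 0.229). It was called without control 3, at −0.44 (edgeR adjusted p = 0.0238), and without control 3, sg4 2 and sg4 3, at −0.58 (edgeR adjusted p = 0.00714).

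BAX, the pore-forming protein on which BH3-only proteins act, was at 69.0, 70.1 and 53.3 CPM in the controls, at 57.0, 51.1 and 64.4 CPM with sg2 and at 56.6, 65.3 and 62.9 CPM with sg4. The groups overlapped and BAX was not called, at −0.11 ± 0.080 (edgeR adjusted p = 0.413). With a mean effective length of 487 bases it is the shortest member, and with the length correction it was called at −0.21 (edgeR adjusted p = 0.0326). Its value was −0.29 without control 3, sg4 2 and sg4 3 (edgeR adjusted p = 0.0374). FAS, the death receptor, was at 34.0, 32.6 and 30.2 CPM in the controls, at 37.1, 34.5 and 33.9 CPM with sg2 and at 37.3, 35.7 and 37.2 CPM with sg4. Of the 6 knockout libraries, 5 were above every control, but the difference of 0.16 ± 0.072 did not pass the test (edgeR adjusted p = 0.160). FAS overlaps ACTA2 in the genome, which had up to 252 counts. The overlap is one of whole gene spans, and whether exons overlap was not examined. With no strand setting stated, reads from any stretch that lies in exons of both genes may not be told apart. This also holds, among others, for TP53INP1 with NDUFAF6 (up to 250 counts), TNFRSF10B with RHOBTB2 (up to 286 counts), CCNG1 with NUDCD2 (up to 641 counts), TP53I3 with FAM228B (up to 72 counts, more than TP53I3 itself) and POLH with GTPBP2 (up to 2426 counts). Further such pairs are SESN1 with ARMC2 (up to 40 counts), MDM2 with the gene named CPM (up to 44 counts) and JMJD6 itself with METTL23 (up to 605 counts).

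The other 5 death and survival genes had small or uncertain differences. SPATA18, which acts in the clearance of damaged mitochondria, was at −0.42 ± 0.14, a size like that of EDA2R, and missed the threshold (edgeR adjusted p = 0.0535). Its levels were low, between 79 and 157 counts a library, and without control 3 it was called at −0.54 (edgeR adjusted p = 0.0325). PHLDA3, an inhibitor of AKT at the membrane, was at −0.12 ± 0.074 (edgeR adjusted p = 0.308) and at −0.30 without control 3, sg4 2 and sg4 3 (edgeR adjusted p = 0.0175). TNFRSF10B, the receptor DR5 for TRAIL, was at −0.06 ± 0.053, the nuclease gene AEN at 0.03 ± 0.075 and TRIAP1, which encodes a mitochondrial lipid-transfer partner, at 0.01 ± 0.11.

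Among the 4 genes of DNA repair and nucleotide supply, RRM2B and XPC fell, and DDB2 and POLH did not pass the test. RRM2B, the p53-inducible subunit of ribonucleotide reductase, was at 176, 166 and 166 CPM in the controls, at 149.7, 143 and 151 CPM with sg2 and at 138, 139 and 130.1 CPM with sg4. The sg2 libraries lay between the controls and the sg4 libraries without overlap. The log2 fold change was −0.26 ± 0.048 (edgeR adjusted p = 7.97e-04), with −0.19 for sg2 (edgeR adjusted p = 0.0277) and −0.32 for sg4 (edgeR adjusted p = 8.14e-04). The sg2 call was lost without control 1, control 2, sg2 1 or sg2 2 (edgeR adjusted p from 0.0510 to 0.142). XPC, the damage sensor of nucleotide excision repair, was at 28.3, 26.7 and 28.2 CPM in the controls, at 22.0, 23.5 and 24.4 CPM with sg2 and at 22.8, 24.7 and 22.5 CPM with sg4. The groups did not overlap, and the log2 fold change was −0.25 ± 0.080 (edgeR adjusted p = 0.0370), but XPC was called with neither guide alone. Its call was lost on leaving out any one of the 3 controls, sg2 1, sg4 1 and sg4 3 (edgeR adjusted p from 0.0599 to 0.150), and it was 0.136 without control 3, sg4 2 and sg4 3 together. DDB2, the other damage sensor of that pathway, was at −0.03 ± 0.067 and POLH, the translesion polymerase eta, at −0.05 ± 0.064.

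In the group of metabolism, redox and RNA genes, FDXR and ZMAT3 fell, and SESN1, SESN2, TIGAR and TP53I3 did not pass the test. FDXR is the mitochondrial ferredoxin reductase, and the promoter window of its start with a decamer is printed above. FDXR was at 26.6, 29.2 and 24.6 CPM in the controls, at 19.4, 18.3 and 21.8 CPM with sg2 and at 21.1, 20.6 and 22.2 CPM with sg4. Every knockout library was below every control, and the log2 fold change was −0.38 ± 0.087 (edgeR adjusted p = 0.00396). ZMAT3, an RNA-binding zinc finger protein, was at 78.7, 73.1 and 72.8 CPM in the controls, at 63.9, 56.2 and 54.9 CPM with sg2 and at 61.8, 60.4 and 60.8 CPM with sg4. The groups of ZMAT3 were far apart relative to their spread, and its log2 fold change was −0.33 ± 0.060 (edgeR adjusted p = 5.95e-04), with calls for both guides at −0.36 and −0.30. The sg4 call of ZMAT3 was lost with the length correction, at −0.22 (edgeR adjusted p = 0.0542), without control 1 (edgeR adjusted p = 0.0677) and without control 3, sg4 2 and sg4 3 (edgeR adjusted p = 0.141). FDXR was also called with both guides, at −0.44 for sg2 (edgeR adjusted p = 0.00665) and −0.33 for sg4 (edgeR adjusted p = 0.0397). The sg4 call was lost without any one of control 1, control 2, sg2 1 and the 3 sg4 libraries (edgeR adjusted p from 0.0546 to 0.163), and without control 3, sg4 2 and sg4 3 (edgeR adjusted p = 0.164).

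The sestrins, which restrain mTORC1, were at −0.18 ± 0.12 for SESN1 and −0.05 ± 0.060 for SESN2. TIGAR, a phosphatase that lowers glycolytic flux, was at −0.10 ± 0.084. TP53I3, a quinone oxidoreductase, had between 35 and 49 counts a library and a difference of 0.17 ± 0.23, so its error exceeded its value. The difference of TP53I3 did not pass the test, and the smallest change detectable with so few reads was not computed.

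Counts by role were small, and differences between roles were not tested. Those called lower were 1 of 4 in feedback, 2 of 5 in arrest, 2 of 11 in death and survival, 2 of 4 in repair and 2 of 6 in metabolism, redox and RNA. Those called higher were 1 of 5 in arrest and 1 of 11 in death and survival. Over all genes 6.95% were called lower and 6.92% higher. The medians of the log2 fold changes lay between −0.15 in repair and −0.10 in feedback. MDM2, CDKN1A, PMAIP1, RRM2B, FDXR and ZMAT3 kept their call on leaving out each of the 9 libraries in turn. CDKN1A, BTG2, EDA2R, RRM2B, FDXR and ZMAT3 were still called without control 3, sg4 2 and sg4 3, with edgeR adjusted p values from 1.72e-04 to 0.0300.

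With each guide on its own against the 3 controls that both share, 7 members fell and 2 rose with sg2, and 7 fell and 1 rose with sg4. The background was 5.36% lower and 5.00% higher among all genes with sg2, and 3.78% lower and 4.65% higher with sg4. CDKN1A, BTG2, EDA2R, RRM2B, FDXR and ZMAT3 fell with each guide, and of these CDKN1A kept both calls on leaving out each of the 9 libraries in turn. BTG2 lost its sg2 call in 3 of these fits (without control 1, control 2 or sg2 1) and its sg4 call in 4 (without control 1, control 2, sg4 1 or sg4 2). EDA2R lost its sg2 call in 5 (without control 1, control 2, sg2 1, sg2 2 or sg4 2) and its sg4 call in 3 (without control 1, sg4 1 or sg4 2). RRM2B lost its sg2 call in 4, FDXR its sg4 call in 6 and ZMAT3 its sg4 call in 1. TP53INP1 was called only with sg2 and MDM2 only with sg4, but for neither did the guides differ from each other beyond the test. The sg2 libraries lay below every control for 11 members and above for 2, against 14.4% and 14.5% of all genes. The sg4 libraries lay below every control for 8 members and above for 3, against 13.2% and 13.2% of all genes. The median was −0.16 with sg2 and −0.08 with sg4. The counts depended on single libraries, and calls over all genes fell in the same fits. With sg2, leaving out control 1, control 2, sg2 1 or sg2 2 took the calls over all genes from 1402 to 735, 1074, 777 and 864. Those of the members went from 9 to 5, 5, 4 and 5. With sg4, leaving out control 1, sg4 1 or sg4 2 took the calls over all genes from 1141 to 619, 1014 and 847. Those of the members went from 8 to 3, 5 and 3. Without control 3, sg4 2 and sg4 3, which leaves 1 sg4 library assumed to vary like the others, sg4 had 2 calls, CDKN1A and RRM2B, and sg2 had 11, with EDA2R (edgeR adjusted p = 0.0605) and PLK2 (edgeR adjusted p = 0.112) no longer among them.

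Set directly against each other, the guides gave no called member, where 0.0591% of all genes were called. At an unadjusted p under 0.05, edgeR gave PLK3, BBC3 and RRM2B, which makes 3 of 30, and DESeq2 gave BBC3 and RRM2B and called 0, but left 20 of the 30 members without an adjusted p, so these could not be called. The largest difference of sg4 minus sg2 was that of BBC3, at 0.36 ± 0.16 on the log2 scale (edgeR adjusted p = 0.448). PLK3 differed by 0.23 and RRM2B by −0.12.

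**Figure D3:**
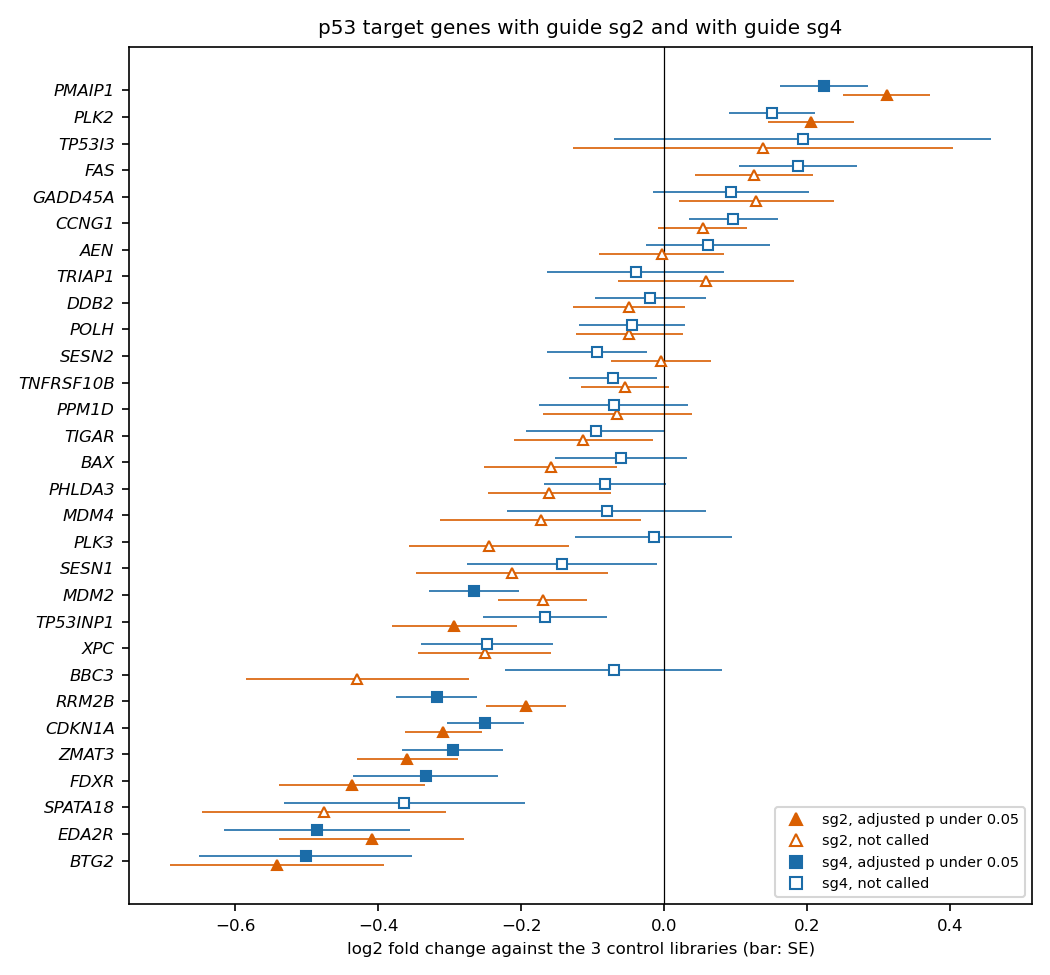
Log2 fold change of each member with sg2 (triangles) and sg4 (squares) against the same 3 control libraries, with the SE as bars; filled symbols had an edgeR adjusted p under 0.05. Filled symbols of both guides appear on the left for BTG2, EDA2R, FDXR, ZMAT3, CDKN1A and RRM2B and on the right for PMAIP1, while BBC3 and PLK3 show the widest gaps between guides.

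Per knockout library, between 11 and 19 of the 30 members lay below every control and between 5 and 7 above every control. The library with 19 below was sg2 2 and the library with 11 below was sg4 3. Over all genes, between 30.2% and 32.7% lay below every control and between 30.2% and 32.2% above, depending on the library.

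Levels of different genes were compared per length, in TPM, which divides by transcript length. In the controls CDKN1A was the highest member at 654 ± 24.0 TPM (SD, n = 3) and did not overlap with any other. GADD45A followed at 302 ± 41.9 TPM and BAX at 260 ± 34.3 TPM, and these 2 overlapped. PLK2 at 179 TPM and PMAIP1 at 151 TPM were each apart from their neighbours, whereas PHLDA3, CCNG1 and TNFRSF10B, between 123 and 130 TPM, overlapped in that order. MDM2 was in the middle of the order at 29.2 TPM. The lowest were MDM4 at 5.90 TPM, SPATA18 at 4.55 TPM and TP53I3 at 3.65 TPM. Both members that rose were among the 5 highest, and those that fell were spread from CDKN1A to BTG2 at 9.36 TPM.

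**Figure D4:**
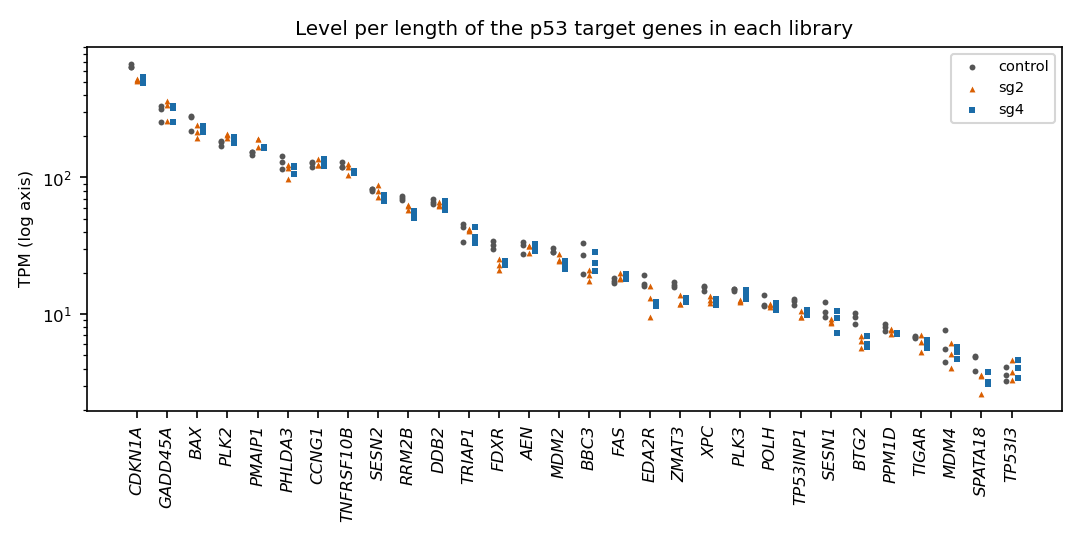
TPM of each member in each library on a log axis, ordered by the control mean; points, triangles and squares are control, sg2 and sg4 libraries. CDKN1A lies apart at the top at 654 TPM in the control mean, and TP53I3 is lowest at 3.65 TPM.

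Further genes of the pathway were read from lists of their own. These lists too were chosen with earlier results of these data known, so their shares beside all genes are descriptions and not tests. Of the 30 tested genes for the p53 protein and its regulators, 3 fell (10%) and 4 rose (13.3%), with a median of −0.03, against 6.95% and 6.92% of all genes. The length correction gave 2 lower and 4 higher, beside 6.81% and 7.44% of all genes. Leaving out 1 library gave from 2 to 4 lower and from 1 to 4 higher, the fewest higher without control 2 or control 3, at 1 each, and 2 each without control 1, sg2 1, sg2 2 or sg4 3. TP53BP1, a scaffold protein at DNA breaks, was at −0.28 ± 0.061 (edgeR adjusted p = 0.00275), DYRK2, a kinase of p53, at 0.31 ± 0.068 (edgeR adjusted p = 0.00317), and CHEK2, the checkpoint kinase, at 0.32 ± 0.10 (edgeR adjusted p = 0.0352). The call of CHEK2 was lost on leaving out any of 7 of the 9 libraries, with adjusted p values from 0.0509 to 0.159. Without control 3, sg4 2 and sg4 3 the adjusted p was 0.126 for CHEK2 and 0.0895 for TP53BP1, and on log2 TPM values with limma DYRK2 was not called (adjusted p = 0.0699).

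Of 28 tested other direct p53 targets, 6 fell (21.4%) and 2 rose (7.14%), with a median of −0.06, against 6.95% and 6.92% of all genes. The length correction gave 7 lower and 4 higher, beside 6.81% and 7.44% of all genes. Without control 1 there were 3 lower, where 3.18% of all genes were, and without control 2 or control 3 there was 1 higher. RPS27L, a ribosomal protein relative, rose by 0.41 ± 0.069 on the log2 scale (edgeR adjusted p = 2.30e-04). PIDD1, a death-domain scaffold, was at −0.33 ± 0.10 (edgeR adjusted p = 0.0262), but not called without control 1, control 3, sg2 1 or sg4 1, at adjusted p values of 0.145, 0.155, 0.0521 and 0.0547, or without control 3, sg4 2 and sg4 3 together (adjusted p = 0.0920). TRIM22, an interferon-inducible ubiquitin ligase, was at −0.29 ± 0.075 (edgeR adjusted p = 0.0116), but not called without control 1 (adjusted p = 0.0702) or control 3 (adjusted p = 0.0607).

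Of 24 genes that p53 is known to lower indirectly, through p21 and the DREAM repressor complex, 13 rose (54.2%), against 6.92% of all genes. Of the others, 11 did not pass the test and 0 fell. The median was 0.18, with 22 positive values and 2 negative ones. FOXM1 lay between 245 and 266 CPM in the controls and between 234 and 248 CPM in the knockout libraries. MCM5 lay between 123 and 135 CPM in the controls and between 115 and 130.5 CPM in the knockout libraries. The mitotic genes CCNB1, at 0.34 ± 0.057 (edgeR adjusted p = 2.06e-04), AURKB, at 0.32 ± 0.068 (edgeR adjusted p = 0.00220), and CDK1, at 0.31 ± 0.064 (edgeR adjusted p = 0.00186), had the largest called differences of that list. With the length correction 14 rose, beside 7.44% of all genes, and without control 1 there were 7, beside 3.68% of all genes. Without control 3, sg4 2 and sg4 3 there were 9, with AURKB no longer called (edgeR adjusted p = 0.0757), and also 9 without control 3 alone. Over all genes, the calls in either direction numbered 1877 with all 9 libraries and 1045 without control 3. Of 7 tested other cell cycle inhibitors, CDKN2C fell, at −0.26 ± 0.071 (edgeR adjusted p = 0.0155), and RB1 rose, at 0.18 ± 0.055 (edgeR adjusted p = 0.0251). The call of CDKN2C was lost without control 2, at −0.14 (edgeR adjusted p = 0.239), and that of RB1 without control 1 (adjusted p = 0.0835), control 2 (adjusted p = 0.0636), control 3 (adjusted p = 0.0880) or sg2 2 (adjusted p = 0.0564), and on log2 TPM values with limma (adjusted p = 0.226).

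**Figure D5:**
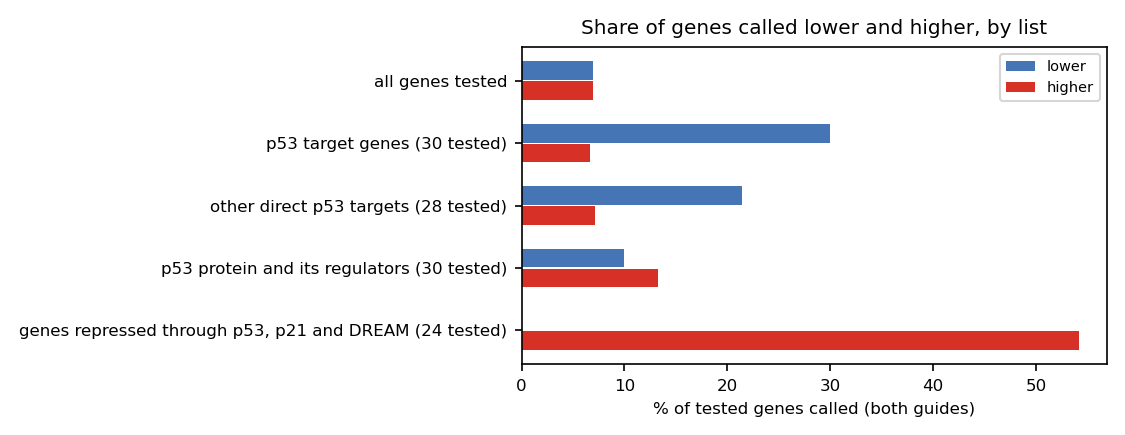
Share of tested genes called lower and higher in the mean of both guides, in percent, for all genes and for each list. The p53 targets had 30% called lower and 6.67% higher, and the list repressed through p53, p21 and DREAM had 0 genes called lower and 54.2% higher.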

How the data were processed

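RNA-seq of 786-O cells was analysed in 9 libraries, 3 per guide. Per the file headers, the deposited tables hold an estimated count and a TPM value per transcript, both made by Salmon. Per the submitters' processing notes, STAR 2.5.2b, cutadapt 1.12, DESeq2 and Salmon were used, without roles or order. Transcript accessions were joined to gene names with the GRCh38.p14 RefSeq table (58031 of 60422, 96.04%) and summed per gene. Accessions without a match took from 1.33% to 1.65% of each library.

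The gene sums, rounded to whole counts, entered 1 edgeR 4.0.16 quasi-likelihood fit (R 4.3.3, limma 3.58.1) with TMM scaling after filterByExpr, which kept 13530 genes. The 4 contrasts were 2-sided, adjusted by Benjamini-Hochberg over all genes, and called at 0.05. CPM used the TMM library sizes. The length correction added a smooth trend of log2 CPM on effective length as an offset per library. The code was tested on simulated data. Replicates of a group differed by more than sampling noise. All 30 members are named, with values in every library for those called in any contrast and for BAX and FAS. Of every further list up to 3 called genes of the largest size are named, and 1 gene that the rule also names is not reported here. The members and lists were chosen with earlier results of these data known. Alternatives were DESeq2 1.42.0, limma on log2(TPM + 0.1), other scaling and filters, a replicate block and leaving out libraries. The ChIP peak lists were not used here, because their positions are on another genome build than the gene table.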

Additional observations from a re-analysis of the deposited data

How the results depend on the processing

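The mean of both guides had 11 called members, and the sg2 and sg4 contrasts had 9 and 8. At an adjusted p under 0.01 the calls with sg2 and sg4 were 4 and 4, and limma on log2 TPM values gave 5 with sg2. Over all genes, the mean, sg2 and sg4 had 1877, 1402 and 1141 calls with all 9 libraries. Leaving out 1 library gave from 938 to 1878, from 735 to 1595 and from 606 to 1227. Among the members, leaving out 1 library gave from 7 to 11 calls for the mean, from 4 to 10 for sg2 and from 3 to 8 for sg4. Leaving out control 3, sg4 2 and sg4 3, chosen after seeing the data, gave 9, 11 and 2. Libraries with the same number did not deviate together (r from −0.14 to 0.05 over 9 pairs), so the numbers were not taken as pairs. With the replicate block the calls were 9, 9 and 6, and with the block and the length correction 9, 8 and 7. DESeq2 and its size factors gave 11, 9 and 8. The guides against each other gave 0 calls in every setting run, where DESeq2 gave 20 of the 30 members no adjusted p. The cause of each shift was not tested, and members with few counts, such as TP53I3, limit what could be seen.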
